A study of Mus musculus with 6 samples.

Results

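The transcripts of 9 genes that receive or carry the Hedgehog signal, Ptch1, Smo, Boc, Cdon, Hhip, Sufu, Gli1, Gli2 and Gli3, were examined in oligodendrocyte precursor cells (OPCs), the proliferating glia from which myelinating oligodendrocytes arise. The genes were chosen by name, with earlier results of these data known, and all 9 were found among the 18211 genes of the table. OPCs were taken from C57BL/6 mice on postnatal day 7 by immunopanning on PDGFRα and sequenced without culture, as 3 libraries from wildtype mice and 3 from NG2-CreERTM:DISC1 exon3 fl/+ mice, called DISC1-Δ3. In the latter, tamoxifen removes exon 3 from a single copy of DISC1, a schizophrenia risk gene, in cells that express NG2, which in brain are OPCs and also pericytes. By RT-qPCR of isolated cell types, pericytes included, the study reports that DISC1-Δ3 mRNA was raised in OPCs only. Both genotypes received tamoxifen by gavage on 4 consecutive days, P4 to P7. By the study's text the wildtype mice carried no CreERT, so the presence of Cre and the deletion cannot be told apart. How many animals made up a library is not given in the sources used here, and p-values measure the spread between libraries.

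Hedgehog ligands bind Ptch1, a receptor that otherwise holds the membrane protein Smo inactive, and the co-receptors Boc and Cdon help present the ligand. Active Smo, working in the primary cilium, frees the Gli transcription factors from Sufu, the protein that retains them. Gli2 acts mostly as an activator, Gli3 mostly as a repressor once it is cleaved, and Gli1 is an activator whose own gene is a target of the pathway. Ptch1 and Hhip, a decoy that binds the ligand at the cell surface, are targets too and dampen the signal. In the embryo Hedgehog signaling induces Olig2 and the earliest OPCs of the ventral neural tube.

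Among the Gli factors, Gli2 rose 1.43-fold, Gli3 fell to 0.685 of its wildtype level and Gli1 did not pass the test. Ptch1 and Smo, with folds of 1.0 and 0.968, did not pass it either. Of the 9 genes, 2 rose (Gli2 and Boc), 1 fell (Gli3) and 6 did not pass an adjusted p of 0.05 in edgeR's quasi-likelihood test, in which each gene's reads were compared between genotypes. The 3 called genes made up 33.3% of the 9, and over all 13792 tested genes 39.9% were called, 20.4% higher and 19.5% lower. The share of called genes among the 9 was thus near that of the whole table. The median log2 fold change of the 9 was 0.00, and that of all tested genes was 0.01. The median size of the change was 0.14 among the 9 and 0.19 among all tested genes.

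The libraries held 13716631 to 16417232 reads assigned to genes, so that a single read stood for 0.0609 to 0.0729 CPM (reads scaled to the library total). Disc1 itself was lower in DISC1-Δ3 libraries (log2 fold change -0.45, standard error, SE, 0.0885, adjusted p = 0.000528), which does not resolve exon 3. The libraries were mixed. In what follows, OPCs names the immunopanned samples, and levels, shares and ratios are those of the mixture. All 9 OPC markers were detected, with a summed RPKM (reads divided by transcript length in kilobases and by library total) of 531 to 552 in wildtype and 677 to 699 in DISC1-Δ3, and 6 were higher and 1 was lower. The 7 microglia markers summed to 8100 to 8390 and 5960 to 6130 RPKM, all 7 lower, the 8 mature oligodendrocyte markers had 6 lower, and of the 8 astrocyte markers 6 were lower and 1 was higher. Neuron markers were higher for 6 of 6, pericyte markers for 5 of 6, endothelial markers for 4 of 6 and granule neuron precursor markers for 3 of 5 tested, while 0 of 6 ependymal and 0 of 6 meningeal fibroblast markers were called. Atoh1, which defines granule neuron precursors, had at most 3 reads in every library. In such bulk samples fewer cells of a type and less RNA per cell cannot be told apart. DISC1-Δ3 replicate 3 stood apart from its group: the chi-square statistic over its degrees of freedom was 4.98 and 5.38 against the other replicates, which differed from each other by 2.59.

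By level, the 9 genes spanned the range from abundant to barely expressed. In the mixed wildtype libraries the order of mean RPKM was Smo (34.5), Ptch1 (14.1), Sufu (9.50), Gli1 (5.29), Boc (3.97), Cdon (3.02), Gli2 (2.62), Gli3 (1.91) and Hhip (0.850). No neighbours in that order overlapped in their 3 libraries. Smo thus stood at percentile 82.1 of tested genes by mean RPKM over the 6 libraries, and Hhip at percentile 7.9. In the DISC1-Δ3 libraries Gli2, at 3.98, had passed Cdon, at 3.17, and their values did not overlap. Gli3 and Hhip, at 1.38 and 1.10, overlapped at the bottom of the order.

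**Figure D1:**
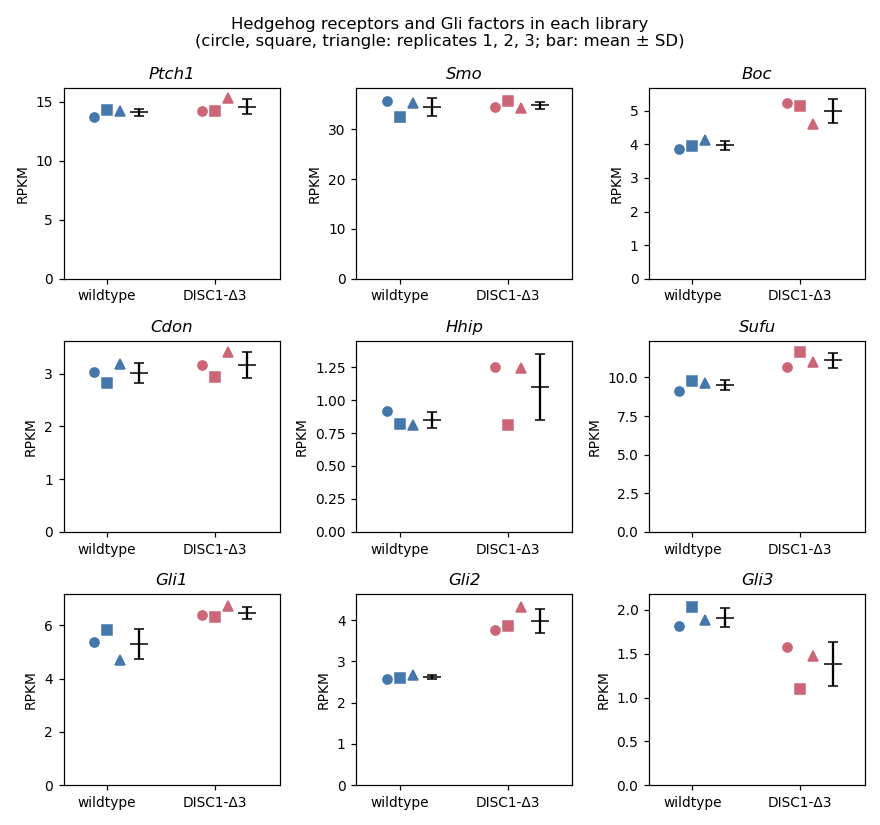
RPKM of the 9 Hedgehog genes (vertical axes, from 0) in the 3 wildtype (blue) and 3 DISC1-Δ3 (red) libraries, with replicates 1, 2 and 3 as circle, square and triangle and a bar for the mean ± SD. The DISC1-Δ3 libraries lie wholly above wildtype for Gli1, Gli2, Sufu and Boc, wholly below it for Gli3, and overlap it for Ptch1, Smo, Cdon and Hhip.

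Ptch1 (gene ID 19206; GRCm38 chr13:63508328-63573598, minus strand), the ligand-binding receptor, had RPKM values of 13.74, 14.32 and 14.18 in wildtype replicates 1 to 3, against 14.21, 14.18 and 15.33 in DISC1-Δ3 replicates 1 to 3. The groups overlapped. Its log2 fold change of 0.00 (SE 0.0512, adjusted p = 0.963) had a 95% interval from a fold of 0.930 to 1.08. Smo (gene ID 319757; chr6:29735503-29761365, plus strand), which passes the signal on, had 35.79, 32.44 and 35.35 RPKM in wildtype against 34.48, 35.71 and 34.39 in DISC1-Δ3 libraries. These overlapped as well, with a log2 fold change of -0.05 (SE 0.0512, adjusted p = 0.492) and an interval from a fold of 0.898 to 1.04. Each library held 1245 to 1961 reads of either gene. Within a library, Smo exceeded Ptch1 throughout. The log2 ratio of Ptch1 to Smo was -1.29 ± 0.103 in wildtype and -1.26 ± 0.0852 in DISC1-Δ3 OPCs (SD, n = 3; exact two-sided permutation test, p = 0.7).

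The co-receptors are related membrane proteins of the immunoglobulin superfamily, and Boc but not Cdon passed the test. Boc (gene ID 117606; chr16:44485049-44558897, minus strand) had 3.85, 3.95 and 4.12 RPKM in wildtype against 5.24, 5.15 and 4.60 in DISC1-Δ3 libraries. The lowest DISC1-Δ3 library, replicate 3, lay just above the highest wildtype library. The log2 difference in reads was 0.25 (SE 0.0914, adjusted p = 0.0403), a fold of 1.19 with an interval from 1.04 to 1.36. This call was close to the threshold, and was lost under DESeq2 (adjusted p = 0.110; range over the alternatives 0.00623 to 0.159) and when any library other than DISC1-Δ3 replicate 3 was left out (adjusted p between 0.0647 and 0.159). Cdon (gene ID 57810; chr9:35421128-35507652, plus strand) had 3.04, 2.82 and 3.19 RPKM in wildtype against 3.17, 2.93 and 3.42 in DISC1-Δ3 libraries. These values interleaved, and the log2 fold change was -0.04 (adjusted p = 0.738) with an interval from a fold of 0.851 to 1.11. That Boc passed the threshold and Cdon did not does not show that they differed. The log2 ratio of Boc to Cdon was 0.40 ± 0.0771 in wildtype and 0.66 ± 0.202 in DISC1-Δ3 OPCs (SD, n = 3), with overlap between the groups (exact two-sided permutation test, p = 0.2).

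Sufu (gene ID 24069; chr19:46396896-46488804, plus strand), the intracellular inhibitor that binds Gli proteins, had 9.12, 9.77 and 9.62 RPKM in wildtype against 10.68, 11.65 and 11.02 in DISC1-Δ3 libraries. The groups did not overlap in RPKM. The log2 fold change from reads was 0.14 (SE 0.0660), a fold of 1.11, and its adjusted p of 0.0926 missed the threshold. RPKM was not scaled between libraries beyond the library total, whereas the test used TMM factors of 0.970 to 0.973 in wildtype and 1.02 to 1.04 in DISC1-Δ3 libraries, which lower the DISC1-Δ3 values relative to wildtype. In all 5 of the 9 genes (55.6%) had groups that did not overlap in RPKM, 4 higher and 1 lower, against 52.0% of all tested genes, 35.9% higher and 16.1% lower. With scaling by library totals or by RPKM sums, and in limma on log2 RPKM, Sufu and Gli1 were also past the threshold, so that 4 of the 9 genes were higher. Of all 13792 tested genes, 4126 were higher with library totals and 4101 with RPKM sums. In limma 3983 and 3965 were higher with pseudocounts of 1 and 0.1, against 2807 with TMM. With scaling by RPKM sums 70.1% of the called genes of the whole table were higher, against 51.1% with TMM.

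**Figure D2:**
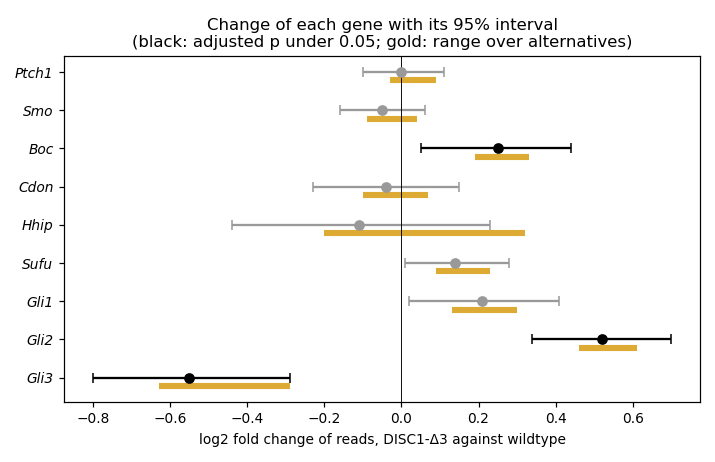
Log2 fold change of reads in DISC1-Δ3 against wildtype OPCs (horizontal axis) for each of the 9 genes, with the 95% interval from edgeR's quasi-likelihood fit, in black where the adjusted p was under 0.05 and in gray otherwise; gold bars give the range over the 18 alternative settings (17 for Hhip). The limma fits among these settings use log2 RPKM with a pseudocount in place of reads. Gli2 at 0.52 and Gli3 at -0.55 lie on opposite sides of 0 under every setting shown, and the gold bars of Ptch1, Smo, Hhip and Cdon cross 0.

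The Gli genes moved in different directions. Gli2 (gene ID 14633; chr1:118834132-119053619, minus strand), the main activator, had 2.58, 2.60 and 2.67 RPKM in wildtype against 3.77, 3.85 and 4.32 in DISC1-Δ3 libraries, from 231 to 280 reads against 352 to 447. Every DISC1-Δ3 library lay above every wildtype library. On the log2 scale the reads rose by 0.52 (SE 0.0841, adjusted p = 8.27e-05), with an interval from a fold of 1.27 to 1.62. Gli3 (gene ID 14634; chr13:15463235-15730026, plus strand), the main repressor, had 1.82, 2.03 and 1.88 RPKM in wildtype against 1.58, 1.10 and 1.47 in DISC1-Δ3 libraries, from 181 to 263 reads against 146 to 193. Here every DISC1-Δ3 library lay below wildtype, with replicate 2 the lowest. On the log2 scale the difference was -0.55 (SE 0.120, adjusted p = 0.00143), with an interval from a fold of 0.575 to 0.816. Both calls held in each of the 18 alternatives, with adjusted p from 1.37e-05 to 0.00134 for Gli2 and from 0.000138 to 0.0477 for Gli3.

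Gli1 (gene ID 14632; chr10:127329882-127341974, minus strand), the activator whose transcript is widely used as a readout of the pathway, had 5.36, 5.83 and 4.69 RPKM in wildtype against 6.38, 6.32 and 6.73 in DISC1-Δ3 libraries. The groups did not overlap, but wildtype replicates 2 and 3 differed from each other by more than wildtype replicate 2 did from DISC1-Δ3. Its log2 fold change of 0.21 (SE 0.0925, adjusted p = 0.0808) did not pass, with an interval from a fold of 1.01 to 1.32. Without wildtype replicate 2 it was 0.29 (adjusted p = 0.0436), and without wildtype replicate 3 it was 0.13 (adjusted p = 0.343). Of 4995 exonic bases annotated to Gli1, 327 are shared with genes on the opposite strand, 62 of them with Arhgap9, and the sources used here do not say whether the libraries keep strand. Gli3 and Hhip share 188 of 9589 and 175 of 9076 exonic bases with predicted genes on the opposite strand.

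Summed over the Gli genes, RPKM was 9.82 ± 0.612 in wildtype and 11.8 ± 0.632 in DISC1-Δ3 OPCs (SD, n = 3). Gli1 held most of the sum in every library, at 53.8 ± 2.67% in wildtype and 54.7 ± 1.20% in DISC1-Δ3 OPCs. The share of Gli2 was 26.4, 24.9 and 28.9% in wildtype against 32.1, 34.2 and 34.5% in DISC1-Δ3 libraries. The share of Gli3 was 18.6, 19.4 and 20.3% in wildtype against 13.5, 9.8 and 11.7% in DISC1-Δ3 libraries. Neither share overlapped between the groups. Per transcript length, Gli2 exceeded Gli3 by 0.46 ± 0.0853 on the log2 scale in wildtype and by 1.54 ± 0.277 in DISC1-Δ3 OPCs (SD, n = 3), so that the ratio was 2.12-fold higher in the latter. The exact two-sided permutation test gave p = 0.1, the smallest that 3 against 3 libraries allow, for the shares of Gli2 and Gli3 and for the ratios of Gli2 and of Gli1 to Gli3, and 0.2 after adjustment over the 8 shares and ratios computed. These ratios do not depend on the scaling between libraries.

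**Figure D3:**
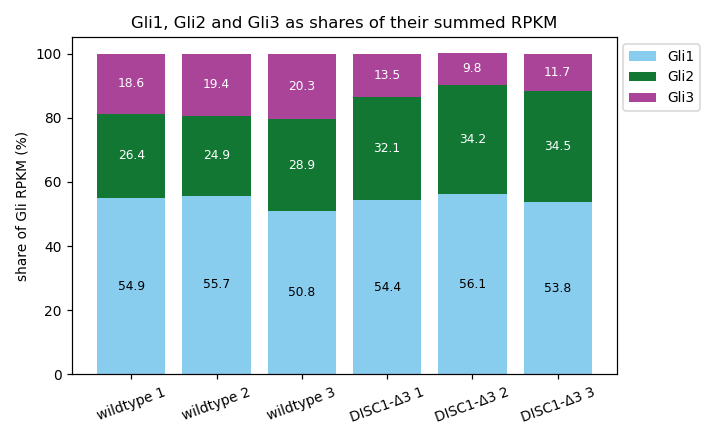
Gli1, Gli2 and Gli3 as percentages of their summed RPKM (vertical axis) in each of the 6 libraries. The Gli1 share stays between 50.8 and 56.1%, the Gli2 share is larger and the Gli3 share is smaller in all 3 DISC1-Δ3 libraries.

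Marker genes of several cell types moved along with the Gli genes. The OPC markers had a median log2 fold change of 0.46, with Pdgfra at 0.48, Cspg4, the gene of NG2, at 0.46 and Olig2 at 0.53, beside 0.52 for Gli2. Of the same list Ptprz1 fell by 0.35 (adjusted p = 9.16e-05), and Vcan and Sox10, at -0.16 and 0.11, did not pass the test. The markers of mature oligodendrocytes, microglia and astrocytes had medians of -0.46, -0.39 and -0.24, beside -0.55 for Gli3. The pericyte and neuron lists had medians of 0.47 and 0.31. The part of these markers in the Gli2 and Gli3 results was not tested. Without DISC1-Δ3 replicate 3, the library that stood apart, the log2 fold changes of Gli2 and Gli3 were 0.47 and -0.63.

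The start regions of Gli2 and Gli3 are shown because these genes moved oppositely. RefSeq (GRCm38.p6) gives a window of 250 bases before and 50 after the start for 7 of the 9 genes (Gli2, Gli3, Ptch1, Smo, Hhip, Sufu and Cdon). Those of Cdon (chr9:35451826-35452125), Ptch1 (chr13:63565686-63565985) and Gli3 lie inside the gene positions given above. The windows of these genes thus do not cover their outermost annotated starts. Capitals mark GC boxes, the letters GGGCGG or, on the other strand, CCGCCC. The windows are chr1:119053570-119053869 on the minus strand and chr13:15463473-15463772 on the plus strand, each written 5′ to 3′.
Gli2: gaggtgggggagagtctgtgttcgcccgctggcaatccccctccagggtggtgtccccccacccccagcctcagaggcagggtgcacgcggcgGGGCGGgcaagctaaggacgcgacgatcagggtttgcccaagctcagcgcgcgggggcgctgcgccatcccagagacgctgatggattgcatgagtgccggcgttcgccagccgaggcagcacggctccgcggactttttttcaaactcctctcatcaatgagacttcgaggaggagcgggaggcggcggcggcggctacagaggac
Gli3: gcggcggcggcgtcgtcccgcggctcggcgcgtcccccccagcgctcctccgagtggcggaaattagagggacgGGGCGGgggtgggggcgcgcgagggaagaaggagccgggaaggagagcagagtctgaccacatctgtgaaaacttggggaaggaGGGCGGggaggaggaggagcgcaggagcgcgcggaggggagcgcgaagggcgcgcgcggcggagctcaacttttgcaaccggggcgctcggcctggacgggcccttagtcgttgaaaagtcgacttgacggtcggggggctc
Both windows were rich in CpG, with 28 CpG and 67.3% GC for Gli2 and 39 CpG and 71.0% GC for Gli3, against medians of 7 CpG and 52.7% GC over all 32851 windows. The Gli2 window held 1 GC box and the Gli3 window 2, and 35.7% of all windows held at least 1. The GLI site GACCACCCA, searched on both strands, was in 0 of the 7 windows and in 0.253% of all windows. The TCF/LEF letters CTTTGAA or CTTTGAT, searched on both strands, were in 0 of the 7 windows and in 8.65% of all windows.

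Hhip (gene ID 15245; chr8:79965851-80058006, minus strand), the decoy receptor, gave different pictures in reads and in RPKM. It had 77, 92 and 106 reads in wildtype against 88, 76 and 106 in DISC1-Δ3 libraries, and the reads overlapped fully. Its log2 fold change from reads was -0.11 (SE 0.159, adjusted p = 0.634), with a wide interval from a fold of 0.737 to 1.17. The RPKM was 0.92, 0.82 and 0.81 in wildtype against 1.25, 0.81 and 1.24 in DISC1-Δ3 libraries, that is, at or below the wildtype values in replicate 2 and above them in replicates 1 and 3. The same 106 reads in replicate 3 of both genotypes were deposited as 0.81 and 1.24 RPKM, although the library totals were alike, at 16364096 and 16116787.

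The gap lay in the transcript length by which the reads were divided, which follows from the reads, the RPKM and the library total. For Hhip this implied length was 6102, 6834 and 7997 bases in wildtype against 4947, 5814 and 5304 bases in DISC1-Δ3 libraries, averaging 6978 ± 956 and 5355 ± 435 bases (SD, n = 3). The groups did not overlap. The mean log2 length differed by -0.38 in DISC1-Δ3 against wildtype, a factor of 0.771 in length (exact permutation test, p = 0.1). Among 11687 genes with at least 50 reads and an RPKM of at least 0.5 in every library, 8.77% had implied lengths that did not overlap between the groups, and 0.0342% (4 genes, Hhip included) had a difference as large. The median size of the difference over these genes was 0.00374 on the log2 scale. GENCODE M21 annotates for Hhip a coding transcript of 9074 bases and a processed transcript of 1173 bases. Which transcripts the authors' counting used is not given in the sources used here. With a correction for the implied length, chosen after seeing these data, the log2 fold change of Hhip was 0.28 (adjusted p = 0.213; range over the alternatives 0.213 to 0.971), so its sign depended on that correction. Under it Gli2 and Boc were still higher and Gli3 lower among the 9 genes, against 19.9% and 19.5% of all tested genes, 39.4% in either direction. Of the other genes, Sufu, Boc and Gli1 had nearly constant implied lengths over the 6 libraries (4373 to 4383, 4276 to 4292 and 3509 to 3525 bases), and those of Gli3 ran from 7205 to 8224 bases in both genotypes alike. The lengths of Cdon did not overlap either, at 7050 to 7194 bases in wildtype and 6788 to 7027 in DISC1-Δ3 libraries. For Ptch1 wildtype replicate 2 stood at 6129 bases, against 6569 to 6659 in the other libraries.

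**Figure D4:**
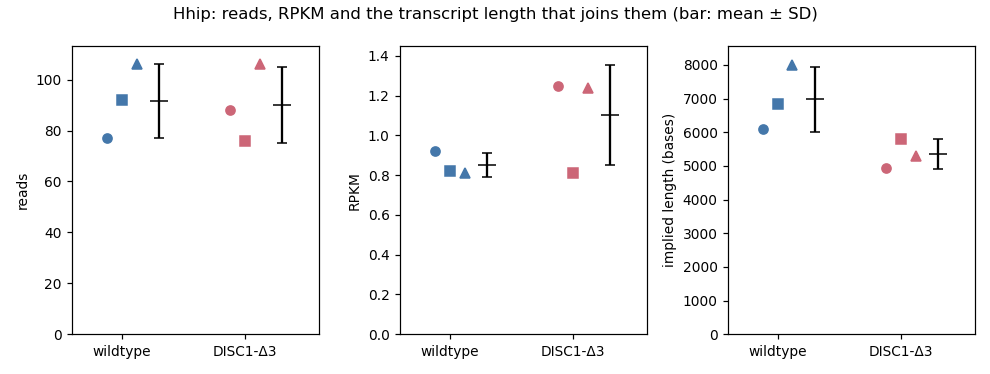
Hhip in the 3 wildtype (blue) and 3 DISC1-Δ3 (red) libraries as reads, as RPKM and as the implied transcript length in bases (vertical axes, from 0), with replicates 1, 2 and 3 as circle, square and triangle and a bar for the mean ± SD. The reads overlap, while the 3 DISC1-Δ3 lengths of 4947 to 5814 bases lie below the wildtype lengths of 6102 to 7997.

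The rest of the pathway was examined through 65 further genes of the table, 58 of them tested. Of these, 18 were higher (31.0%, against 20.4% of all tested genes) and 5 lower (8.62%, against 19.5%), with a median log2 fold change of 0.05. Under DESeq2 13 were higher and 4 lower, against 16.2% and 17.2% of all tested genes. The number higher was 8 without DISC1-Δ3 replicate 2, against 2042 of all 13567 tested genes. It was 10 without wildtype replicate 2 or 3, against 2189 of 13693 and 2238 of 13713. Without DISC1-Δ3 replicate 1 it was 11, against 2175 of 13581. The share higher beside that of all genes thus depended on the libraries used. The number lower was 3 without wildtype replicate 1 or 2, against 2203 of 13704 and 2142 of 13693. With other scalings more were higher, 25 with library totals and 24 with RPKM sums, against 4126 and 4101 of 13792. Limma on log2 RPKM gave 22 and 21 with pseudocounts of 1 and 0.1, against 3983 and 3965.

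Ligands were close to absent. Shh, Ihh and Dhh had 1 to 10 reads in each library, and did not pass the RPKM filter. Shh had 7 reads in all over the wildtype libraries and 16 over the DISC1-Δ3 libraries, a ratio of 2.29 per total read whose exact 95% interval of 0.890 to 6.57 covers counting error alone. Of 5 tested genes of ligand production and release 1 was higher, Disp2, a relative of the ligand transporter Disp1. Its RPKM was 2.94 ± 0.278 in wildtype and 5.49 ± 0.209 in DISC1-Δ3 libraries (SD, n = 3), and its reads rose by 0.84 on the log2 scale (adjusted p = 2.52e-07), while Disp1 was at -0.11 (adjusted p = 0.455).

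Of the other receptors and ligand-binding proteins 2 of 4 tested were higher and 0 lower. The cell surface proteoglycans Gpc4 and Gpc3 rose by log2 fold changes of 0.83 (adjusted p = 3.16e-07) and 0.60 (adjusted p = 0.00346). Gas1, a further co-receptor, was at 0.16 (adjusted p = 0.0974), with 13.9 ± 1.17 and 16.3 ± 0.815 RPKM (SD, n = 3).

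Among 29 genes of the cilium and of Gli processing 8 were higher and 3 lower, with a median of 0.03. Kif7, a ciliary kinesin that organizes Gli proteins at the cilium tip, had 1.70, 1.78 and 1.72 RPKM in wildtype against 2.48, 2.52 and 3.09 in DISC1-Δ3 libraries, a log2 fold change of 0.57 (adjusted p = 0.000834). Gpr161, a ciliary receptor that restrains the pathway, was higher by 0.24 (adjusted p = 0.0460), near the threshold. Dyrk2, a kinase, and Grk2, a receptor kinase that acts on Smo, fell by 0.44 and 0.29 on the log2 scale (adjusted p = 4.08e-05 and 7.30e-05). Efcab7, which anchors the Evc complex at the base of the cilium, had the largest fall of this list, -0.99 (SE 0.347, adjusted p = 0.0296), from only 23, 28 and 28 reads in wildtype against 10, 24 and 8. Its DISC1-Δ3 libraries had 0.41, 0.87 and 0.29 RPKM, so it passed the RPKM filter through the wildtype libraries, where it is high. It is among the 3 and the 5 genes counted as lower, and there its call carries no weight. Gsk3b, a kinase shared with the Wnt pathway, was at -0.07 (adjusted p = 0.347).

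Known target genes other than Ptch1, Hhip and Gli1 numbered 21 tested, of which 7 were higher and 2 lower, with a median of 0.08. They did not move together. Olig2, at 0.53, is among these 7 and also among the 6 OPC markers called higher, so the 2 counts share it. Foxa2, a floor plate transcription factor, had 4 reads over the 3 wildtype libraries and 167 over the 3 DISC1-Δ3 libraries, a ratio of 41.8 per total read (exact 95% interval 16.0 to 155). Nkx6-1, a ventral patterning factor, had 6 reads against 87, a ratio of 14.5 (6.40 to 40.6). Both intervals cover counting error only. Both genes passed the RPKM filter only through the DISC1-Δ3 libraries, where they are high. They are among the 7 and the 18 genes counted as higher, and there their calls carry no weight. Nkx2-2, which acts in oligodendrocyte differentiation, had 7.75 ± 0.936 RPKM in wildtype and 13.2 ± 0.642 in DISC1-Δ3 libraries (SD, n = 3), and rose by 0.69 on the log2 scale (adjusted p = 1.51e-05). The cyclin gene Ccnd1 was at 0.03 (adjusted p = 0.725). Many of these genes are also controlled by other signals. For comparison, the Wnt feedback genes Axin2 and Notum were at 2.33 and 5.02 in the same fit.

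**Figure D5:**
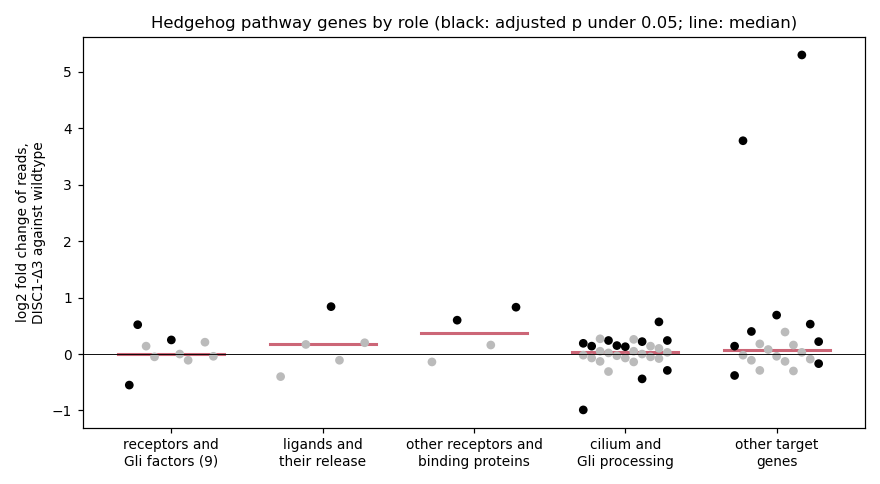
Log2 fold change of reads in DISC1-Δ3 against wildtype OPCs (vertical axis) for the tested genes of 5 groups by role, black where the adjusted p was under 0.05 and gray otherwise, with a line at each group's median (Gas1 stands in 2 groups). The 9 receptors and Gli factors lie between -0.55 and 0.52, and Nkx6-1 at 3.78 and Foxa2 at 5.30 lie farthest above them. Nkx6-1 and Foxa2 passed the RPKM filter only through the DISC1-Δ3 libraries. Efcab7, at -0.99, passed it through the wildtype libraries.

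The tested genes whose log2 CPM followed a given gene most closely over the 6 libraries were named for Ptch1, Gli1 and Gli3, the latter as the gene with the largest log2 fold change in size with TMM scaling (-0.55, against 0.52 for Gli2; with library totals, RPKM sums and limma that of Gli2 was larger). They were Nars2, Sra1 and Xpot for Ptch1 (Pearson r of 0.995, 0.980 and 0.978), Cxcr4, Gins4 and Vta1 for Gli1 (0.998, 0.993 and 0.990), and Anxa11, Fam167b and Slc22a18 for Gli3 (0.994, 0.988 and 0.987). An r above 0.95 was reached by 9 genes for Ptch1, 33 for Gli1 and 93 for Gli3, out of 13792 tested. With 6 libraries that share 2 genotypes and their depth, such values are a description.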

How the data were processed

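RNA-seq of immunopanned OPCs gave 3 wildtype and 3 DISC1-Δ3 libraries, grouped by their titles. The authors deposited, for 18211 genes, expected counts (reads per gene, 90.2% of nonzero values whole) and RPKM to 2 decimals. Per the labels, reads were 50 bases, single end, and the submitters' processing notes name Bowtie2 2.2.5 and mm10; the counting tool is not given in the sources used here. The authors' 4 group-average columns were not used. Counts were rounded, scaled by TMM and compared by edgeR 4.0.16's quasi-likelihood test in R 4.3.3, with genotype as the only term, for the 13792 genes whose RPKM reached 0.5 in 3 or more libraries. Two-sided p-values were adjusted by Benjamini-Hochberg over all tested genes. Standard errors are the coefficient divided by the square root of F. DESeq2 1.42.0, which the study names, and limma 3.58.1 were among 18 alternatives.

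The 9 genes and all lists were chosen with earlier results of these data known. The 9 genes are all named; of each other list, called genes up to 4 by size of change, with Shh, Ihh, Dhh, Gas1, Kif7 and Gpr161 whatever their values. A listed gene is not reported here. Disc1 and Cspg4 serve as checks of the labels. Disp1, Gsk3b, Ccnd1, Ptprz1, Vcan and Sox10 were added after their values were seen. Simulated data held 13792 genes, of which 200 were changed. There edgeR recovered 85 of 100 genes at a log2 fold change of 0.5 in size and 91 of 100 at 1. It made 9 false calls. In the deposited data 5498 of 13792 genes were called, and recovery with so many changed genes was not tested. Positions are from GENCODE M21 (GRCm38, the assembly of mm10). Replicates differed beyond sampling noise (chi-square per degree of freedom 1.80 to 5.38), so none were merged. No molecular identifiers were counted, so exact intervals cover counting error only.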

Additional observations from a re-analysis of the deposited data

How the results depend on the processing

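Gli2 was called higher and Gli3 lower under all 18 alternatives. The number of the 9 genes called higher, 2 with the settings used, was 4 with library totals, with RPKM sums and in both limma fits (Gli1, Gli2, Sufu and Boc), and 1 (Gli2) without the RPKM filter, with filterByExpr and under DESeq2, where Boc was lost. It ran from 1 to 2 with a library left out: 1 without wildtype replicate 1 or 3 or DISC1-Δ3 replicate 1 or 2, and 2 without wildtype replicate 2, where Gli1 replaced Boc, or DISC1-Δ3 replicate 3. The cause was not tested. Over all genes 2807 of 13792 were higher with the settings used. That number was 4126 and 4101 with library totals and RPKM sums, and 3983 and 3965 in limma. It was 2895 of 18186 without the RPKM filter, 2640 of 14448 with filterByExpr and 2229 of 13792 under DESeq2. With a library left out it ran from 2042 to 2848. Of the 9 genes the number called lower stayed at 1, while over all genes it ran from 1748 to 3260.

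The median log2 fold change of the 9 genes, 0.00, was 0.09 with library totals and with RPKM sums, which move the median of all genes to 0.09 as well. It was 0.08 at an RPKM of at least 1, where Hhip was not tested, 0.18 and 0.22 in limma with pseudocounts of 1 and 0.1, and 0.14 with the offset for implied length that was added after seeing the data. For genes that never passed the threshold the sign of the log2 fold change varied. Ptch1 was at 0.00 with median-of-ratios scaling, without the filter and under DESeq2, at -0.01 with filterByExpr, at -0.03 with the length offset, and from -0.02 to 0.03 with a library left out. Smo was at 0.03 and 0.04 with library totals and RPKM sums, and 0.01 in both limma fits. Hhip was at 0.18 and 0.32 in the limma fits, 0.28 with the length offset, and from -0.20 to 0.01 with a library left out. Cdon was at 0.04 with library totals and RPKM sums, 0.05 and 0.07 in the limma fits, and from -0.10 to 0.01 with a library left out.

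Of the further pathway genes, from 8 to 16 were higher and from 3 to 7 lower with a library left out. Over all tested genes 2042 to 2848 were higher and 2142 to 3260 lower there. Fewer libraries enter those fits. In both limma fits 3 were lower, against 1774 and 1763 of all tested genes. From counts in place of RPKM, which are not per length, the Gli2 share differed by 9.68 and the Gli3 share by -11.25 percentage points, against 6.87 and -7.81, and the log2 ratio of Hhip to Ptch1 by -0.12, against 0.30. Over all genes, the number called ran from 4331 to 6108.

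Replicate numbers are shared by the genotypes, but deviations of same-numbered libraries had correlations of 0.0689, 0.0235 and -0.0561, so the numbers gave no sign of pairing. Not every library correlated best with its own number. With the number as a replicate block 5429 genes were called, against 5498, and 2774 of them were higher. Of the 9 genes 1 was higher (Boc had an adjusted p of 0.0606).

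Depth limits Hhip most, with 76 to 106 reads a library, and Gli3, with 146 to 263. Changes are of RNA from mixed cells and say nothing of Gli protein processing. Counts per gene do not resolve isoforms.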
